A study of Arabidopsis thaliana with 12 samples.

Results

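The polyamine synthesis enzymes are 10 of the 27655 genes in the deposited tables, taken by their locus identifiers and all measured. They are 4 S-adenosylmethionine decarboxylases (SAMDC1 to SAMDC4), 2 arginine decarboxylases (ADC1 and ADC2), 2 spermidine synthases (SPDS1 and SPDS2), spermine synthase (SPMS) and thermospermine synthase (ACL5). The values compare Ribo-seq, in which the mRNA pieces shielded by ribosomes from RNase digestion (footprints) are sequenced, with RNA-seq of rRNA-depleted total RNA. Both assays used Arabidopsis Col-0 seedlings of 7 days, grown in shaken liquid medium with 1% sucrose under 16 hours of light at 22 °C. All plants, with no untreated group, received DMSO at 0.1% of the medium at 3 hours after lights on, and were harvested 20 or 60 minutes later. There were 6 Ribo-seq and 6 RNA-seq libraries, but each table holds 1 value per gene for its assay as a whole, so no spread between replicates can be given. The intervals below cover counting error only, and differences between the assays have no replicate check. The descriptions of the Ribo-seq samples name root while their titles name seedlings. The 3 shoot markers fixed for this check had 3076 to 9676 TPM (a read share scaled by length, which adds up to the same total in each table) in Ribo-seq and 2389 to 7470 TPM in RNA-seq, and 4 root markers had 4.28 to 4634 TPM in Ribo-seq and 5.67 to 3121 TPM in RNA-seq, so shoot and root transcripts were in both tables. Expected counts totalled 299584069 in Ribo-seq and 51390094 in RNA-seq.

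Polyamines are small positively charged molecules that bind nucleic acids and are needed for growth. In Arabidopsis, which lacks ornithine decarboxylase, putrescine is made from arginine by arginine decarboxylase and later steps. S-adenosylmethionine decarboxylase makes the aminopropyl donor with which spermidine synthase turns putrescine into spermidine, and spermine synthase and thermospermine synthase add a further aminopropyl group. Plant SAMDC mRNAs are known for an upstream open reading frame (uORF), a short reading frame in the 5′ leader ahead of the main coding sequence, through which polyamines lower translation of the enzyme.

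Some of these genes are close copies, and the letters at which the copies are most alike show how far short reads can be told apart. In the coding sequences of the TAIR10.1 annotation (RefSeq), SAMDC1 and SAMDC2 were 78.9% identical over aligned nucleotides, ADC1 and ADC2 82.6%, and SPDS1 and SPDS2 85.4%. The longest run shared by each pair is shown in capitals, with 15 coding bases on either side in lower case.
SAMDC1: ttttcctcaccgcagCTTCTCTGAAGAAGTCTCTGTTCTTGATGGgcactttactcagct
SAMDC2: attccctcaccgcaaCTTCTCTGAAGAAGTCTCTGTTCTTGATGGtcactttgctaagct
ADC1: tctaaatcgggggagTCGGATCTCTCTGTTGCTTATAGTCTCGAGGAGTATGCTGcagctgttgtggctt
ADC2: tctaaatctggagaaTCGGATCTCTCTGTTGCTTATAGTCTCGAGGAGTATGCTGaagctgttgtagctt
SPDS1: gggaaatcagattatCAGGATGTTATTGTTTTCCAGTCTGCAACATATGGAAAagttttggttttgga
SPDS2: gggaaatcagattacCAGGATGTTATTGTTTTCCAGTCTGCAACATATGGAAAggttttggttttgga
These windows lie at chr3:510591-510650 (SAMDC1, plus strand), chr5:5207074-5207133 (SAMDC2, plus), chr2:7151839-7151908 (ADC1, minus), chr4:16561352-16561421 (ADC2, minus), chr1:8420713-8420871 (SPDS1, plus) and chr1:26486879-26487033 (SPDS2, minus), where the last pair spans an intron. The shared runs are 30, 40 and 38 nucleotides long. A footprint of 28 nucleotides from within one of them could come from either gene of its pair. Over each whole coding sequence, 28-mers that recur in another transcript or elsewhere in the genome were 0.279% in SAMDC1 and 0.282% in SAMDC2. They were 1.3% in ADC1, 1.28% in ADC2, 2.35% in SPDS1 and 2.31% in SPDS2, and 0% in SAMDC3, SAMDC4, SPMS and ACL5. For the ADC and SPDS pairs, part of them lie outside the runs shown. No window of 100 nucleotides, the length of an RNA-seq read, recurred in another transcript or elsewhere in the genome for any of the 10 genes. Few windows of each gene were thus shared with its copy. An antisense lncRNA gene (AT1G05833) overlaps 33 of the 1005 coding nucleotides of SPDS1. The annotated spans of SPDS1, SPMS and ACL5 also overlap the genes AT1G23830, AT5G53130 and AT5G19520, in that order. How far these overlaps reach coding sequence is not given here. The sources used here do not give whether reads were counted by strand.

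The SAMDC genes and the ADC genes carried few footprints for their RNA, with SAMDC4 as the exception, while the genes of the later steps carried footprints about in proportion to RNA or more. For each gene the Ribo-seq TPM was divided by the RNA-seq TPM, with 0.1 added to each, and the ratio was expressed on the log2 scale. It was under -1 for 5 of the 10 genes, against 10.1% of the 21422 nuclear genes with RNA-seq TPM over 0.1, and over 1 for 0 of the 10, against 8.44%. The median was -2.12 over the 4 SAMDC genes and 0.23 over the other 6, against 0.12 over all nuclear genes. By count, 3 of the 4 SAMDC genes and 2 of the other 6 were under -1. The split thus did not follow the SAMDC family alone: the other pair under -1 were ADC1 and ADC2.

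**Figure D1:**
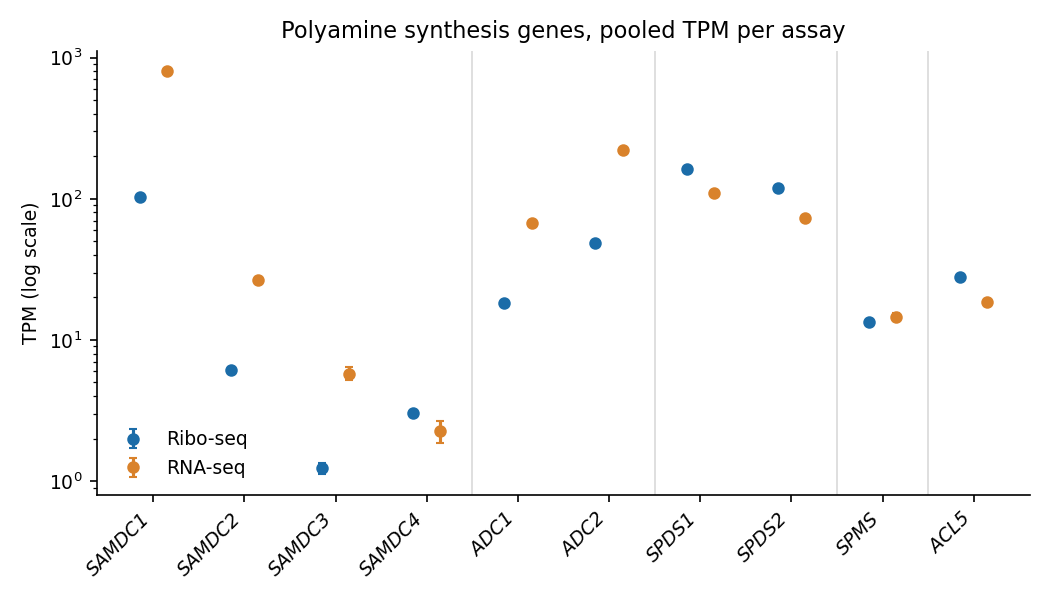
TPM of the 10 polyamine synthesis genes on a log axis, Ribo-seq in blue and RNA-seq in orange, 1 pooled value per assay with 95% Poisson intervals for counting error (mostly smaller than the points). SAMDC1, SAMDC2, SAMDC3, ADC1 and ADC2 lie lower in Ribo-seq than in RNA-seq, and SAMDC4, SPDS1, SPDS2 and ACL5 lie higher. SPMS lies slightly lower in Ribo-seq, with overlapping intervals.

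SAMDC1 (AT3G02470, chr3:508886-511561, plus strand) held most of the decarboxylase mRNA. It had 103.8 TPM in Ribo-seq (95% interval 102.7 to 104.8) and 797.3 TPM in RNA-seq (790.3 to 804.5). Its log2 ratio of -2.94 (-2.97 to -2.91) was the lowest of the 10, and 0.85% of nuclear genes lay lower. RNA-seq TPM was at least this high in 102 nuclear genes, SAMDC1 included, and 2 of them, again with SAMDC1, had a ratio as low or lower. SAMDC2 (AT5G15950, chr5:5205869-5208036, plus strand), its closest copy, had 2217 footprints and 1597 RNA-seq counts. That gave 6.17 TPM in Ribo-seq and 26.6 TPM in RNA-seq, a ratio of -2.09 (-2.22 to -1.96). SAMDC3 (AT3G25570, chr3:9287178-9289338, minus strand) was rarer still, with 427 footprints and 332 RNA-seq counts. Its levels were 1.23 TPM in Ribo-seq and 5.78 TPM in RNA-seq, a ratio of -2.14 (-2.43 to -1.86). The ratios of SAMDC2 and SAMDC3 were alike within counting error, though their RNA-seq levels differed 4.61-fold, and both lay above that of SAMDC1.

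SAMDC4 (AT5G18930, also called BUD2 after the bushy and dwarf growth of its mutant; chr5:6311725-6313372, minus strand) went the other way. It had 1039 footprints and 128 RNA-seq counts, or 3.02 TPM in Ribo-seq and 2.25 TPM in RNA-seq. Its ratio of 0.41 (0.083 to 0.74) was higher than that of 66.1% of nuclear genes, and higher than that of SAMDC3 by 2.55 on the log2 scale. In RNA-seq it was the scarcest of the 10 genes, at 0.389 times the TPM of SAMDC3, whereas in Ribo-seq it had 2.46 times the TPM of SAMDC3. In whole seedlings a low level may mean few expressing cells or little RNA per cell, which cannot be told apart here. Within the family, SAMDC1 supplied 90.9% of the TPM in Ribo-seq and 95.8% in RNA-seq, and SAMDC4 supplied 2.64% in Ribo-seq and 0.270% in RNA-seq.

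The arginine decarboxylases, which open the route to putrescine, also had low ratios. ADC1 (AT2G16500, chr2:7150514-7153430, minus strand) had 12947 footprints and 8595 RNA-seq counts, or 18.4 TPM in Ribo-seq and 67.3 TPM in RNA-seq. Its ratio was -1.87 (-1.92 to -1.81). ADC2 (AT4G34710, chr4:16560030-16563044, minus strand), known as the stress-responsive copy, had 34504 footprints and 28747 RNA-seq counts. Its levels were 48.3 TPM in Ribo-seq and 221.9 TPM in RNA-seq, a ratio of -2.20 (-2.23 to -2.16). The interval of ADC2 overlapped those of SAMDC2 and SAMDC3, which does not show that the ratios were equal. For ADC2, 1.80% of nuclear genes lay lower. Among the 527 nuclear genes with at least its RNA-seq TPM, ADC2 included, 4 had a ratio as low or lower. ADC2 exceeded ADC1 2.63-fold in Ribo-seq TPM and 3.30-fold in RNA-seq TPM. The lower-expressed copy thus had the higher ratio, by 0.33 on the log2 scale. The same order was seen between SAMDC1 and SAMDC2 and between SPDS1 and SPDS2. This was not seen between SAMDC2 and SAMDC3, and RNA-seq TPM is itself the divisor of the ratio.

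The spermidine synthases had the most footprints of the pathway. SPDS1 (AT1G23820, chr1:8420265-8422985, plus strand) had 54024 footprints and 5911 RNA-seq counts, or 163.9 TPM in Ribo-seq and 109.8 TPM in RNA-seq, a ratio of 0.58 (0.53 to 0.63). SPDS2 (AT1G70310, chr1:26485238-26487595, minus strand) had 40377 footprints and 4062 RNA-seq counts, or 119.7 TPM in Ribo-seq and 73.1 TPM in RNA-seq. Its ratio of 0.71 (0.65 to 0.77) was the highest of the 10, and its interval overlapped that of ACL5. Both copies lay above the nuclear median, and neither made up less than 39.9% of the step in either assay.

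The aminopropyl transferases that act on spermidine were expressed at lower levels. SPMS (AT5G53120, listed as SPDS3 in the annotation; chr5:21534473-21537816, plus strand) had 4777 footprints and 908 RNA-seq counts, or 13.4 TPM in Ribo-seq and 14.5 TPM in RNA-seq. Its ratio of -0.11 (-0.25 to 0.023) had an interval that included 0 but lay below the nuclear median of 0.12. ACL5 (AT5G19530, chr5:6588771-6591363, minus strand) makes thermospermine, which restrains xylem differentiation, and had 9207 footprints and 1022 RNA-seq counts. Its levels were 27.9 TPM in Ribo-seq and 18.5 TPM in RNA-seq, a ratio of 0.60 (0.48 to 0.71). ACL5 exceeded SPMS 2.09-fold in Ribo-seq TPM and 1.28-fold in RNA-seq TPM.

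As a result, the order of the genes differed between the assays. By Ribo-seq TPM it ran SPDS1, SPDS2, SAMDC1, ADC2, ACL5, ADC1, SPMS, SAMDC2, SAMDC4 and SAMDC3, from high to low. By RNA-seq TPM it ran SAMDC1, ADC2, SPDS1, SPDS2, ADC1, SAMDC2, ACL5, SPMS, SAMDC3 and SAMDC4. In both orders no neighbours overlapped in their counting intervals, while replicate spread is unknown. SAMDC1 had 0.633 times the TPM of SPDS1 in Ribo-seq but 7.26 times its TPM in RNA-seq. Against ACL5, SAMDC2 had 0.221 times the TPM in Ribo-seq and 1.44 times the TPM in RNA-seq.

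Summed over copies, the decarboxylases dominated the RNA and spermidine synthase the footprints. The 4 SAMDC genes summed to 114 TPM in Ribo-seq (113 to 115) and 832 TPM in RNA-seq (825 to 839). The ADC pair summed to 66.7 TPM in Ribo-seq (66.1 to 67.3) and 289 TPM in RNA-seq (286 to 292). The SPDS pair summed to 284 TPM in Ribo-seq (282 to 285) and 183 TPM in RNA-seq (179 to 186). Of the TPM of all 10 genes, SAMDC genes thus held 22.6% in Ribo-seq and 62.2% in RNA-seq, and spermidine synthases held 56.1% in Ribo-seq and 13.7% in RNA-seq. Spermidine synthase exceeded the SAMDC step 2.48-fold in summed Ribo-seq TPM, whereas the SAMDC step exceeded spermidine synthase 4.55-fold in summed RNA-seq TPM.

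**Figure D2:**
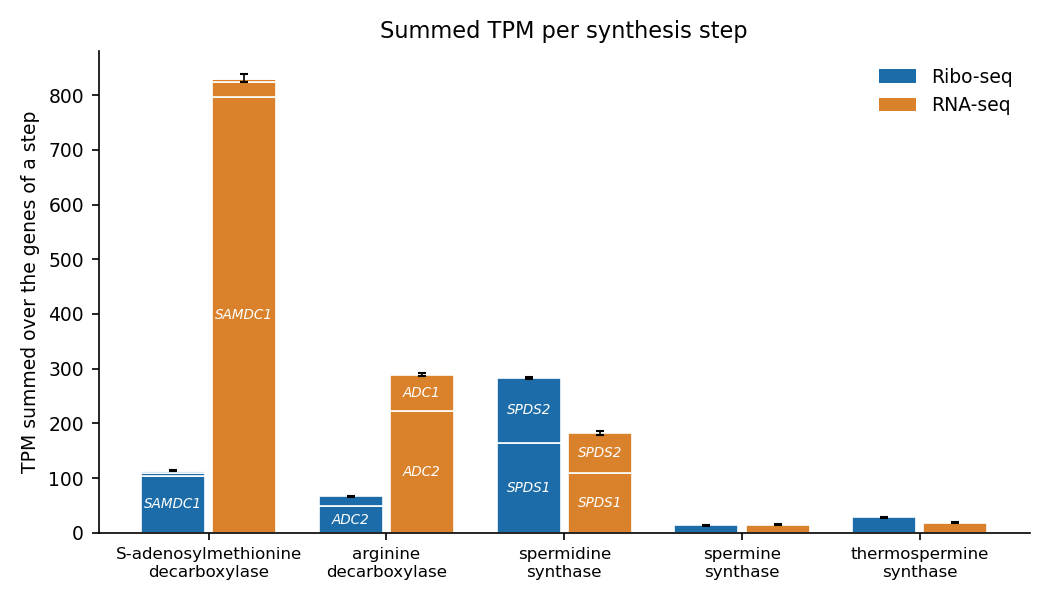
TPM summed over the genes of each synthesis step, Ribo-seq in blue to the left of RNA-seq in orange, with white lines between genes and error bars for counting error (95%). The SAMDC bars stand at 114 in Ribo-seq and 832 in RNA-seq, and the spermidine synthase bars at 284 in Ribo-seq and 183 in RNA-seq.

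The annotation marks a uORF in the leaders of SAMDC1, SAMDC2 and SAMDC3, and in none of the other 7 genes. SAMDC1 carries it at chr3:509815-510068, across an intron, with 52 codons before the stop. That of SAMDC2 lies at chr5:5206432-5206587, without an intron, and has 51 codons from the annotated start (an ATG directly before it, in the same frame, would give 52), and that of SAMDC3 lies at chr3:9288595-9288871, across an intron, with 54 codons. They end 154, 118 and 132 nucleotides before the main start codon. In each, a tiny ORF of 3 codons (SAMDC1 and SAMDC2) or 5 codons (SAMDC3) begins upstream and overlaps the start of the annotated uORF, by 4, 1 and 11 nucleotides. The table lengths of all 10 genes lie within the range of their annotated coding lengths, so footprints on the uORFs are not part of the values. The 3 genes with an annotated uORF had a median ratio of -2.14, and the 7 without one had a median of 0.41.

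SAMDC4 shares the enzyme but not the leader. Its annotated leader has 157 nucleotides and no ATG, and it is the SAMDC gene whose ratio lay above the nuclear median. The ADC genes have long leaders without an annotated uORF. ADC1 has a leader of 526 nucleotides with a single ATG, which opens an ORF of 57 codons, longer than the uORFs of the SAMDC genes. ADC2 has leaders of 594 and 384 nucleotides in its 2 isoforms, and the only ORF in either has 6 codons. Upstream ATGs also occur in genes with high ratios. The 243 nucleotides of the SPDS2 leader hold 4 ATGs, with ORFs of up to 16 codons, and the leader of the first ACL5 isoform holds an ORF of 25 codons. The leader of the first SPMS isoform has 278 nucleotides and no ATG, and the first SPDS1 isoform is annotated without a leader. Some other SPMS isoforms hold up to 4 upstream ATGs, with ORFs of up to 19 codons. The second SPDS1 isoform has a leader of 13 nucleotides, with an ATG whose frame runs into the coding sequence. Whether these leader features play a part in the ratios was not tested.

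**Figure D3:**
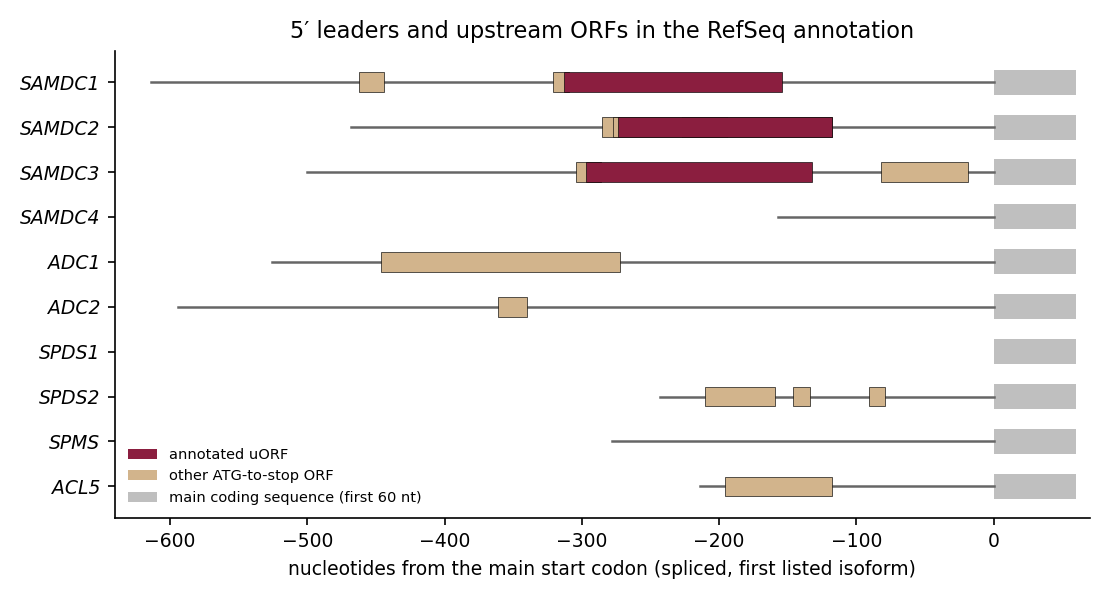
5′ leaders of the first listed isoform of each gene, drawn to scale in spliced nucleotides before the main start codon, with annotated uORFs in dark red, other ATG-to-stop ORFs in tan (an ORF inside an annotated uORF is hidden behind it) and the first 60 nucleotides of the coding sequence in grey. The 3 annotated uORFs sit in SAMDC1, SAMDC2 and SAMDC3, SAMDC4 and SPMS have no upstream ORF, and SPDS1 has no annotated leader.

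Across the genome, low ratios were common among genes with an annotated uORF. Of the 84 such genes, 82 had a ratio, with a median of -1.33 and 52 of them (63.4%) under -1. Among the 21340 nuclear genes without one, the median was 0.12 and 9.92% were under -1. Lack of an annotated uORF does not mean lack of an upstream ORF. Of 20199 annotated leaders, 60.5% held an upstream ATG and 4.89% an upstream ORF of 50 codons or more. The share under -1 was 7.68% with 1 or 2 upstream ATGs and 17.3% with 3 or more. SAMDC1 had the 7th lowest ratio of the 82, SAMDC3 the 22nd and SAMDC2 the 24th. With these 3 left out, 49 of 79 (62.0%) were under -1. For the features of the ADC leaders, of 987 genes with an upstream ORF of 50 codons or more, as in ADC1, 22.0% were under -1. Of 251 genes with a leader of 500 nucleotides or more and no upstream ORF of 20 codons or more, as in the first isoform of ADC2, 20.3% were. With leaders that long and an upstream ORF of 20 codons or more, as in ADC1, 27.6% of 945 genes were under -1. With no upstream ATG in an annotated leader, as in SAMDC4, 4.45% of 7970 genes were under -1. Over all 20199 annotated leaders, 8.85% of genes were under -1. The shares by leader feature describe the annotation of 1 isoform per gene, whereas annotated uORFs were taken per gene. Leader length was not matched between the groups.

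**Figure D4:**
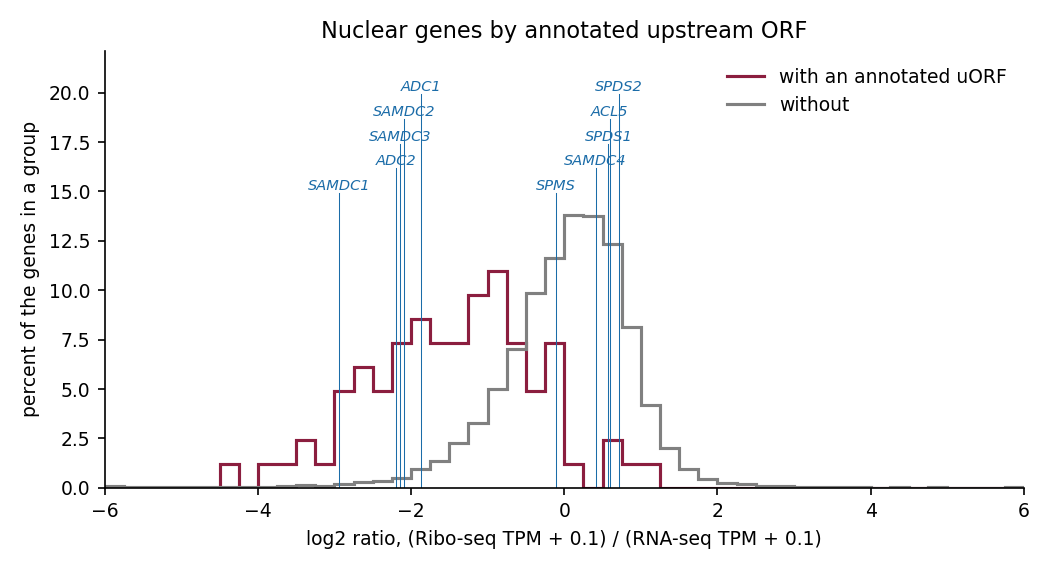
Share of nuclear genes per bin of log2 ratio, with an annotated uORF (dark red, 82 genes) and without one (grey, 21340 genes), and the 10 polyamine synthesis genes as blue lines. SAMDC1, SAMDC2, SAMDC3, ADC1 and ADC2 fall between -2.94 and -1.87, in the left tail of the genes without an annotated uORF. The other 5 fall between -0.11 and 0.71.

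The 3 other nuclear genes nearest to SAMDC1 in log2(TPM + 0.1) of both assays, by Euclidean distance over these 2 values, are annotated as subunits of mitochondrial complexes. AT1G14450, annotated as a NADH dehydrogenase subunit, had 149.6 TPM in Ribo-seq and 503 TPM in RNA-seq, at a distance of 0.85. AT2G07707, annotated as a subunit 8 of the mitochondrial ATPase, had 191.1 TPM in Ribo-seq and 806 TPM in RNA-seq (0.88). It lies where the nuclear genome holds a copy of mitochondrial DNA, so its reads may be shared with the mitochondrial gene and its values are uncertain. The succinate dehydrogenase subunit SDH8 had 110.2 TPM in Ribo-seq and 432.9 TPM in RNA-seq (0.89). None of them has an annotated uORF, and all had a higher ratio than SAMDC1, from -2.08 to -1.75. Effective length was 186 nucleotides below length in RNA-seq and 27 in Ribo-seq, a gap that weighs most on short coding sequences. Whether coding length plays a part in the nearness of these 3 genes to SAMDC1 was not tested.

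Of 44 genes in 8 lists around the core pathway, 41 had RNA-seq TPM over 0.1. Their median ratio was 0.47, with 1 (2.44%) under -1, against 10.1% of all nuclear genes, and 4 (9.76%) over 1, near the 8.44% of all nuclear genes. The 4 S-adenosylmethionine synthetases, which make the substrate of the SAMDC enzymes, ranged from 0.72 to 1.01 (median 0.88). The most abundant of them, MTO3, had 1557 TPM in Ribo-seq and 772 TPM in RNA-seq, a ratio of 1.01. The 4 genes of arginase and of the agmatine steps that follow ADC had a median of 0.45, and NLP1, which completes putrescine synthesis, had 39.3 TPM in Ribo-seq and 35.8 TPM in RNA-seq, a ratio of 0.13. So the low ratios of ADC1 and ADC2 were not shared by the genes of the next steps.

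Genes that recycle or use the products stood mostly above the nuclear median. The 9 genes that recycle methylthioadenosine, the by-product of each aminopropyl transfer, had a median of 0.61. ARD3, a dioxygenase of this cycle, had the highest ratio at 2.33 (1.53 to 3.16), on 458 footprints and 12 RNA-seq counts. Spermidine also supplies the hypusine residue of translation factor eIF5A, and the 5 genes of eIF5A and its modification had a median of 0.64. Of these, ELF5A-3 had 174.5 TPM in Ribo-seq and 81.6 TPM in RNA-seq, a ratio of 1.1. Of 5 acyltransferases that modify polyamines or related amines, 2 had a ratio, 0.70 for AT2G25150 (named because so few remained) and 1.46 for AT2G39020, also called NATA2. SHT was at 0 in both assays, SDT had 1 RNA-seq count and 0 footprints (a count of 0 allows up to 3), and NATA1 had 19 footprints and 2 RNA-seq counts.

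Among the genes of breakdown and transport, PAO4 was the 1 gene of all lists under -1. This peroxisomal polyamine oxidase had 23.5 TPM in Ribo-seq and 65.4 TPM in RNA-seq, a ratio of -1.47 (-1.54 to -1.41). Its leader has 415 nucleotides with an upstream ORF of 50 codons and no annotated uORF. The related PAO2 and PAO3, named here after their values were seen, do have an annotated uORF, and had ratios of -0.83 and -0.17. An annotated uORF thus went with ratios from -2.94 in SAMDC1 to -0.17 in PAO3 within polyamine metabolism. The 7 copper amine oxidases had a median of 0.0044, with AT2G42490 the most abundant in RNA-seq at 34.95 TPM in Ribo-seq and 45.4 TPM in RNA-seq. The 5 polyamine uptake transporters had a median of -0.18, and PUT5 had 7.31 TPM in Ribo-seq and 12.2 TPM in RNA-seq, a ratio of -0.73.

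**Figure D5:**
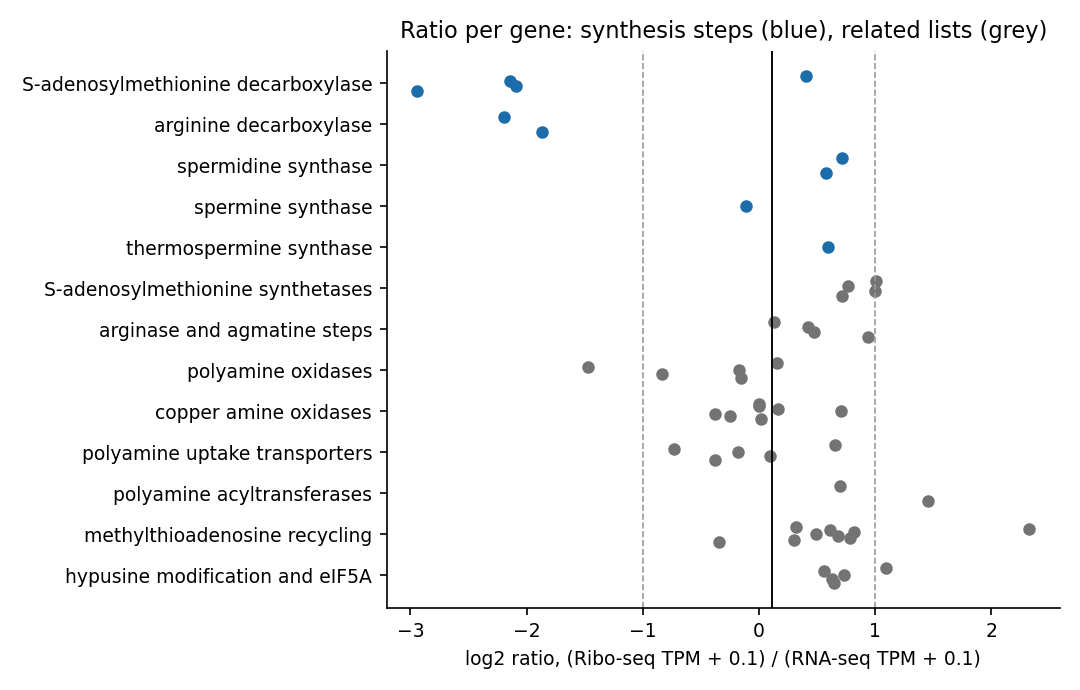
Log2 ratio (Ribo-seq over RNA-seq TPM) for each gene of the 5 synthesis steps (blue) and of the 8 related lists (grey), with the nuclear median of 0.12 as a solid line and -1 and 1 as dashed lines. Of all 51 genes drawn, those left of -1 are SAMDC1, SAMDC2, SAMDC3, ADC1, ADC2 and PAO4.

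TPM is a share of each table, and nuclear genes held 95.2% of the TPM in Ribo-seq and 69.8% in RNA-seq. When both were rescaled over nuclear genes, the median of all nuclear genes moved by -0.44 and the ratio of SAMDC4 to -0.022. Against the nuclear median, SAMDC4, SPDS1, SPDS2 and ACL5 stayed above and the other 6 genes below under that and the other scalings tried. Of the calls over all nuclear genes, 54.5% were under -1 rather than over 1, against 88.0% after this rescaling, 67.0% after centring on the nuclear median and 39.3% with counts scaled to the table total (CPM).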

How the data were processed

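Ribo-seq and RNA-seq libraries of Col-0 seedlings were compared, 6 of each. The authors deposited 1 RSEM table per assay. Expected counts, as deposited, are not normalized, and TPM, as deposited, were computed by RSEM over effective coding length; FPKM in the deposited tables was not used. Per the submitters' processing notes the tools were STAR, RSEM 1.3.1 and Bowtie2 2.3.4.1. The sources used here do not give the genome build, the annotation or how libraries were combined. All but 75 Ribo-seq and 20 RNA-seq expected counts were whole. Effective length was 27 (Ribo-seq) and 186 (RNA-seq) nucleotides below length.

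Log2 ratios used a pseudocount of 0.1 TPM and nuclear genes with RNA-seq TPM over 0.1. No test was possible with 1 value per assay. Intervals of a gene's TPM are exact Poisson intervals (95%) of its count. Those of a ratio pair the low limit of one count with the high limit of the other. Ratio intervals are therefore wider than 95% intervals, and their overlap does not show that ratios are equal. Intervals of sums use a normal approximation. Reads are not independent molecules, so intervals cover counting error only. Leaders, uORFs and coding sequences came from TAIR10.1 (RefSeq), whose coding lengths equal those of the tables in 100% of 11531 genes with 1 isoform. Background leader counts used the isoform numbered 1, and 28-mers were sought on both strands of the genome and of all spliced mRNAs. Members, lists and the rule for named genes (all members, up to 4 genes per list past -1 or 1 with 10 or more counts in both assays, otherwise the list gene of highest RNA-seq TPM, and the 3 genes nearest SAMDC1) were chosen with earlier results of these data known. Python 3.11.15, numpy 2.4.6, pandas 2.3.3, scipy 1.17.1, Biopython 1.88 and matplotlib 3.10.9 were used.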

Additional observations from a re-analysis of the deposited data

How the results depend on the processing

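The main choices were varied in 9 ways. In the 6 that can change a gene's own ratio (pseudocount, unit or scaling), SAMDC1, SAMDC2, SAMDC3, ADC1 and ADC2 remained under -1. The 2 other filters on low values cannot move a gene's ratio. With ADC1 and ADC2, and SPDS1 and SPDS2, each summed, 1 of the other genes was under -1, as the ADC pair then counts once; the SAMDC genes were left separate there. With a pseudocount of 1 TPM the SAMDC median was -1.77 and its difference from the other genes -2.01. With whole coding lengths the medians were -2.35 for SAMDC genes and -0.0025 for the others, and with TPM rescaled over nuclear genes they were -2.56 and -0.21. Of the 60 values of single members under those 6, 31 stayed within the counting interval of the reported value and 0 of the values under -1 changed sign. Over all nuclear genes, 2169 (10.1%) were under -1 as reported, 1039 (4.85%) with a pseudocount of 1 TPM and 4429 (20.2%) after rescaling over nuclear genes. Those over 1 were 1809 as reported, 3022 in CPM and 606 after that rescaling. No paired analysis was possible because each table holds 1 pooled value per gene, and for the same reason no replicate could be left out. Depth limits SAMDC4 most, whose 128 RNA-seq counts leave its ratio between 0.083 and 0.74.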
